A study of Homo sapiens with 2 samples.

Results

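Long intergenic non-coding RNAs are transcribed from genes that lie mostly between protein-coding genes. The genes described here are those whose official symbol is LINC followed by a number, and a gene was kept when at least 1 of its probe sets gave a signal of 50 or more on either array. Of the 840 such genes with a probe set that carries a single gene symbol, 215 (25.6%) were kept, against 12490 of 16516 protein-coding genes (75.6%). Where a gene had several probe sets, the one of highest mean log2 signal stands for it. The genes were thus chosen by their measured signals on these same arrays, and a gene kept through 1 array alone tends to differ between the arrays by that choice.

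The RNA came from HCT116, an established human colon carcinoma line grown in culture. One sample had received siRNAs against JMJD1A and JMJD1B and the other a control siRNA, with total RNA taken 2 days later, and each was hybridised to 1 single-channel array. JMJD1A and JMJD1B are now named KDM3A and KDM3B and encode demethylases of lysine 9 of histone H3, a mark of silent chromatin when methylated. With 1 array per condition there is no replicate error and no test, so each difference below is between these 2 arrays and their number limits the precision. Sequences of the siRNAs were not used here, and off-target effects were not tested.

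A long intergenic non-coding RNA is spliced and polyadenylated much like a messenger RNA but holds no long reading frame. Many are present at few copies per cell and are restricted to particular cell types. Some act in the nucleus on chromatin or on a neighbouring gene, others bind proteins or microRNAs in the cytoplasm, some encode short peptides, and most have no established role.

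KDM3B signals were 496 and 315 on the JMJD1A/JMJD1B siRNA array, against 3031 and 2765 on the control siRNA array, for its 2 probe sets. The brighter KDM3A probe set gave 3323 on the JMJD1A/JMJD1B siRNA array and 3884 on the control siRNA array, or 85.6% of it. The arrays are called by what their labels say. Both arrays had been scaled to one trimmed mean of 500.1, with a median signal of 55.5 on the JMJD1A/JMJD1B siRNA array and 52.2 on the control siRNA array. All 8 epithelial markers had signals of 50 or more, with a summed signal of 121717 on the JMJD1A/JMJD1B siRNA array and 78863 on the control siRNA array. Of 13 measurable markers of fibroblasts, leukocytes and endothelium, 5 reached 50, and the summed signal of the 13 was 1148 on the JMJD1A/JMJD1B siRNA array and 711 on the control siRNA array. COL1A1, a collagen gene, was the largest member of both sums, with 631 on the JMJD1A/JMJD1B siRNA array and 324 on the control siRNA array, while COL1A2, LUM and KDR were lower on the JMJD1A/JMJD1B siRNA array. Of the leukocyte markers, CD3E and CSF1R reached 50, and PTPRC read 12.4 with JMJD1A/JMJD1B siRNA and 8.22 with control siRNA. No marker was at 0. The part of these differences in the results below was not tested.

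LINC genes were dim. The median of the geometric mean signal over both arrays was 64.5 for the 215 LINC genes and 677 for the protein-coding genes kept by the same threshold. In 140 of the 215 (65.1%) the higher of both signals was under 100, which was so for 13.3% of the protein-coding genes. Only 18 LINC genes reached 500 on either array and 5 reached 1000. A signal of 50 was reached on both arrays by 115, on the JMJD1A/JMJD1B siRNA array alone by 59 and on the control siRNA array alone by 40, while LINC01260 was kept through a probe set other than its brightest. The 2 genes just inside the threshold were LINC01140, with 50.3 on the JMJD1A/JMJD1B siRNA array and 20.9 on the control siRNA array, and LINC01792, with 32.2 with JMJD1A/JMJD1B siRNA and 50.3 with control siRNA. The 2 just outside were LINC02806, with 49.5 with JMJD1A/JMJD1B siRNA and 30.7 with control siRNA, and LINC01599, with 49.8 with JMJD1A/JMJD1B siRNA and 21.3 with control siRNA.

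On the deposited scale the 6 brightest LINC genes differed by less than 2-fold between the arrays by the probe set that stands for them. LINC00621 passed 2-fold on the median level (-1.01) and on the hybridization controls (-1.54), and LINC00623 did so under quantile normalization (1.00). LINC00621 read 2296 on the JMJD1A/JMJD1B siRNA array and 4364 on the control siRNA array (log2 ratio -0.93, JMJD1A/JMJD1B siRNA minus control siRNA throughout). LINC00623 read 2768 with JMJD1A/JMJD1B siRNA and 1441 with control siRNA (0.94). Both were measured by an _x_at probe set, a suffix the array maker gives to probe sets that can also match other transcripts, so these signals may be shared with related sequences. LINC01234, studied in gastric and other carcinomas, read 1296 on the JMJD1A/JMJD1B siRNA array and 1147 on the control siRNA array (0.18). LINC00467, reported to encode a mitochondrial micropeptide in colorectal cancer cells, read 1397 with JMJD1A/JMJD1B siRNA and 1036 with control siRNA (0.43), with a second probe set at 1.09. LINC02210 read 896 with JMJD1A/JMJD1B siRNA and 761 with control siRNA (0.24), and LINC01315 read 781 with JMJD1A/JMJD1B siRNA and 754 with control siRNA (0.05). LINC00326, named after its values were seen, read 513 with JMJD1A/JMJD1B siRNA and 1012 with control siRNA (-0.98).

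Of the 215 LINC genes, 50 (23.3%) were higher by 2-fold or more on the JMJD1A/JMJD1B siRNA array, and 24 (11.2%) were lower by as much. In bulk RNA, fewer cells that hold a transcript and less of it per cell cannot be told apart. Over all 13698 genes kept by the same threshold the shares were 11.5% and 9.71%, over protein-coding genes 10.9% and 9.54%, and over 723 other long non-coding RNA genes 17.6% and 11.3%. Of the 50 higher LINC genes, 41 reached 50 on the JMJD1A/JMJD1B siRNA array alone, and of the 24 lower ones 22 did so on the control siRNA array alone, so these counts follow in large part from the threshold and nothing is read from them. Had the arrays been levelled on the spiked-in hybridization controls, which stood 0.61 higher on the log2 scale on the JMJD1A/JMJD1B siRNA array, 21 LINC genes would be higher by 2-fold and 48 lower. The higher share of such LINC genes would then be 30.4%, against 67.6% on the deposited scale. The median log2 ratio was 0.23 for the 215 LINC genes, 0.05 for the protein-coding genes and 0.06 for all genes kept, and levelling on the hybridization controls would put the LINC median at -0.38.

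**Figure D1:**
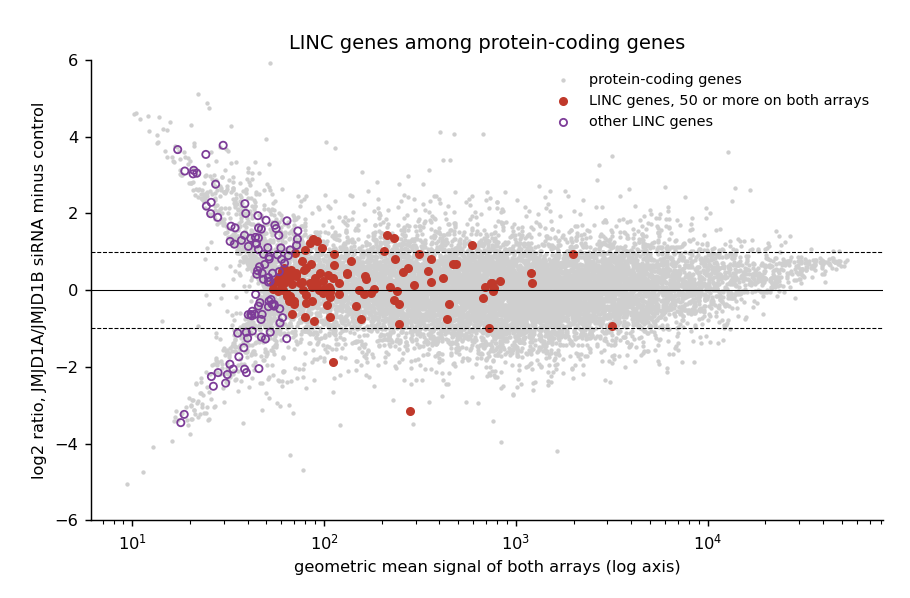
Log2 ratio of each gene (JMJD1A/JMJD1B siRNA minus control siRNA, vertical axis) against its geometric mean signal over both arrays (horizontal log axis), with dashed lines at 2-fold. Filled points are the 115 LINC genes at 50 or more on both arrays, open points the other LINC genes, which fan out at low signal together with the protein-coding genes in grey.

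The most extreme ratios among LINC genes came from dim probe sets. All 12 genes with the highest ratios had under 20 on the control siRNA array. LINC00685, which lies in a pseudoautosomal region of the sex chromosomes, read 110.1 on the JMJD1A/JMJD1B siRNA array and 8.06 on the control siRNA array, a ratio of 3.77. Against a control signal raised to the threshold it was at least 2.20-fold higher, with the error of the brighter signal left out of the bound. LINC01144 read 61.4 on the JMJD1A/JMJD1B siRNA array and 4.86 on the control siRNA array, at least 1.23-fold higher by the same bound. LINC02696 read 82.4 with JMJD1A/JMJD1B siRNA and 7.11 with control siRNA (3.53), at least 1.65-fold higher. The others were LINC00652, LINC02549, LINC00928, LINC00919, LINC01101, LINC03048, LINC01310, LINC01585 and LINC01600. Among all 41 genes higher by 2-fold and at 50 on the JMJD1A/JMJD1B siRNA array alone, the bound ran from 1.01-fold to 2.49-fold. It reached 2-fold in 5, namely LINC00685, LINC02405, LINC03026, LINC01342 and LINC02893, the last 4 named after their values were seen. The share of all kept genes that reach this bound was not computed, so nothing is read from this count.

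The 12 genes with the lowest ratios were alike except for LINC01806. The other 11 read between 5.41 and 22.5 on the JMJD1A/JMJD1B siRNA array, against 56.5 to 93.1 on the control siRNA array. LINC01785 had the lowest ratio, with 5.41 on the JMJD1A/JMJD1B siRNA array and 59.4 on the control siRNA array (-3.46), which is at least 1.19-fold lower against the threshold. LINC00906 followed with 6.07 with JMJD1A/JMJD1B siRNA and 57.4 with control siRNA, at least 1.15-fold lower. None of these 11 reached a bound of 2-fold, the highest being 1.86-fold for LINC00424. Here too the share over all kept genes was not computed, and nothing is read from the count. The rest were LINC00930, LINC01424, LINC01341, LINC01644, LINC00421, LINC02709, LINC02749 and LINC01503, the last reported as driven by a super-enhancer in squamous carcinoma. Of the 23 LINC genes with a 4-fold ratio in either direction, 11 higher and 12 lower, 1 was at 50 or more on both arrays. Over all genes kept, 2.64% were higher by 4-fold or more and 1.65% lower.

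With 50 or more on both arrays, 115 LINC genes remained, and 9 (7.83%) were higher by 2-fold or more and 2 (1.74%) lower. Over all 11968 genes at that level the shares were 7.96% and 8.03%, over protein-coding genes 8.03% and 8.18%, and over 447 other long non-coding RNA genes 6.26% and 5.59%. The higher share thus lay near the background, and the lower share rested on 2 genes. Levelled on the hybridization controls, 0 of the 115 would be higher and 13 lower, beside 1.70% and 27.4% of all genes at that level. The median log2 ratio of the 115 was 0.18, with quartiles at -0.10 and 0.46 and 76 of them (66.1%) above 0. For protein-coding genes at that level the median was 0.03, with 51.5% above 0, or 54.4% once weighted to the LINC genes' signal. Levelled on the hybridization controls, 21 of the 115 (18.3%) would lie above 0, against 18.9% of protein-coding genes so weighted. The SD of the log2 ratio over genes was 0.63 for these LINC genes and 0.74 for the protein-coding genes. The only measure of scatter came from the differences between the 2 brightest probe sets of a gene. The SD so inferred for the log2 ratio of 1 probe set was 0.65 over 6741 genes. Over 37 LINC genes with such a pair it was 0.91, beside 1 for a 2-fold difference. Both probe sets read the same RNA on the same arrays, so this SD leaves out error between samples and arrays.

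LINC01806 had the largest difference of the 115. Its brighter probe set read 93.8 on the JMJD1A/JMJD1B siRNA array and 836 on the control siRNA array, 8.91-fold lower, with a log2 ratio of -3.16. A second probe set read 138.4 with JMJD1A/JMJD1B siRNA and 311 with control siRNA (-1.17), so both were lower beyond 2-fold but by unequal amounts. LINC02551 read 57.9 on the JMJD1A/JMJD1B siRNA array and 214 on the control siRNA array, 3.69-fold lower (-1.88). Its other probe set was at the low end of the scale, with 1.32 with JMJD1A/JMJD1B siRNA and 0.795 with control siRNA. LINC02551 was named after its values were seen, as were LINC00592, LINC01193, LINC01504, LINC01607 and LINC02256, described next.

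The 9 LINC genes at least 2-fold higher with 50 or more on both arrays lay between 2.01-fold and 2.72-fold. LINC00963, first described in prostate cancer progression, read 370.5 on the JMJD1A/JMJD1B siRNA array and 145 on the control siRNA array (1.35), and its second probe set read 276 with JMJD1A/JMJD1B siRNA and 122 with control siRNA (1.18). Both probe sets of LINC01770 were also higher, with ratios of 1.27 and 1.55, at signals of 143 and 82.3 on the JMJD1A/JMJD1B siRNA array, against 59.3 and 28.2 on the control siRNA array. LINC02762 read 353 with JMJD1A/JMJD1B siRNA and 129.7 with control siRNA (1.44) by its brighter probe set, but 30.9 with JMJD1A/JMJD1B siRNA and 95.1 with control siRNA (-1.62) by its other one. LINC00662, studied in several carcinomas, read 889 on the JMJD1A/JMJD1B siRNA array and 393 on the control siRNA array (1.18), while its other probe sets at 50 or more had ratios of 0.62, -0.20, -1.11 and -3.55. No single direction can be given for LINC02762 or LINC00662 from these probe sets. LINC01504 read 290.3 with JMJD1A/JMJD1B siRNA and 144 with control siRNA (1.01). LINC01193 read 139 with JMJD1A/JMJD1B siRNA and 55.6 with control siRNA (1.33). LINC00592 read 129 with JMJD1A/JMJD1B siRNA and 54.9 with control siRNA (1.24). These 3 were higher by between 2-fold and 3-fold. LINC02256 read 142 with JMJD1A/JMJD1B siRNA and 66.6 with control siRNA (1.09). LINC01607 read 114 with JMJD1A/JMJD1B siRNA and 55.4 with control siRNA (1.04). The single probe set of LINC02256 and the brighter one of LINC01770 are _x_at sets, open to signal from related sequences. Levelled on the hybridization controls, none of the 9 would be 2-fold higher, since each ratio would be smaller by 0.61.

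**Figure D2:**
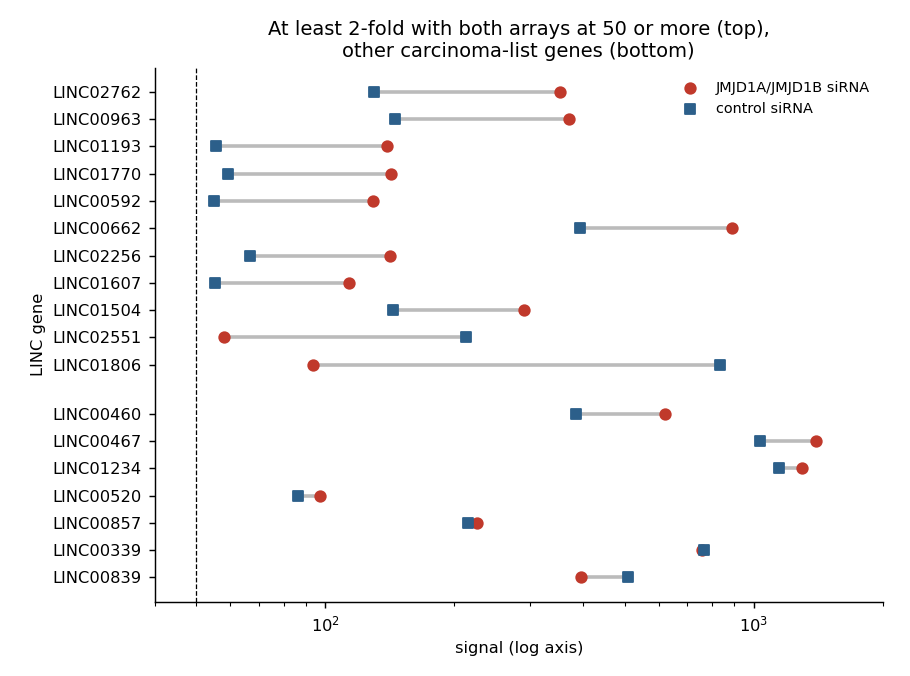
Signal on the JMJD1A/JMJD1B siRNA array (circles) and the control siRNA array (squares) on a log axis for the 11 LINC genes changed at least 2-fold with both signals at 50 or more (upper block) and the other genes of the carcinoma list (lower block), with a dashed line at 50. LINC01806 and LINC02551 have the circle left of the square, and LINC01806 spans 93.8 to 836.

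The promoters of 5 of these 11 genes are shown because the gene reached a signal of 200 on 1 array and its promoter held at least 1 of the motifs searched. They run from 250 bases before to 50 bases after the annotated start, from RefSeq on GRCh38.p14, and 165 of the 215 genes had one (the first listed where there were several). Capitals mark matches on either strand to ACGTG or GCGTG, the core of the hypoxia response element, to the E-box CACGTG, which contains ACGTG, to the AP-1 site TGANTCA and to TATAAA, with overlapping matches run together.
LINC01806 (chr2:161244489-161244788, plus strand): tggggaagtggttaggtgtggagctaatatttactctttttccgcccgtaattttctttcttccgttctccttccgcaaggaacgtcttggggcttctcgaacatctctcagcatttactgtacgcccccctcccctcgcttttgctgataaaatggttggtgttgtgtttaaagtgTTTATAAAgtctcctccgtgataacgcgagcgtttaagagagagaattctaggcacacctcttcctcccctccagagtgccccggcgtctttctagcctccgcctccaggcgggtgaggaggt
LINC02551 (chr11:130862061-130862360, minus strand): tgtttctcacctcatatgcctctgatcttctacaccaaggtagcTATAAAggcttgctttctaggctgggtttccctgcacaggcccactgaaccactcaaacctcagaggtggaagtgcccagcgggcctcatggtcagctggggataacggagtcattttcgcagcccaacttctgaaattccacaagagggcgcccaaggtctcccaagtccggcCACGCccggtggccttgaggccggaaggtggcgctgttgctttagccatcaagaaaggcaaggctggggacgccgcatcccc
LINC02762 (chr11:112270499-112270798, plus strand): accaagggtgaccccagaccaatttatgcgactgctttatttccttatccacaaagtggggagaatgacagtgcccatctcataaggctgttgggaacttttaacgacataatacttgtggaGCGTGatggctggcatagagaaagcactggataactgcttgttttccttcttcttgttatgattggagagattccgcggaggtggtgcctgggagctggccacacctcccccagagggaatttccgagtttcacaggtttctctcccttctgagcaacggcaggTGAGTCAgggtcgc
LINC00963 (chr9:129488410-129488709, plus strand): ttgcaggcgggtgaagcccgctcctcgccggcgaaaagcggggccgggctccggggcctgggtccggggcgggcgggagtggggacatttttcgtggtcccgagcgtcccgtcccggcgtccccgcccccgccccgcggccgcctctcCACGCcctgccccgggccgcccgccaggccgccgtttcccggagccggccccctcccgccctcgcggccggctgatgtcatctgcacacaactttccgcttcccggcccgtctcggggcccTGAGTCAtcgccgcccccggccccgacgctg
LINC01504 (chr9:72305186-72305485, plus strand): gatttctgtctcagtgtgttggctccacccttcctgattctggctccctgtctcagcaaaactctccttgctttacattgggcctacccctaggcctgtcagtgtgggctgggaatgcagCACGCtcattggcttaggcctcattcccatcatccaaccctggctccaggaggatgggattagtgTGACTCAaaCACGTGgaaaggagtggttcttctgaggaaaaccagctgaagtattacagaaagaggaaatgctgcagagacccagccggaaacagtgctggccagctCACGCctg

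TGANTCA was present in the windows of LINC02762, LINC00963 and LINC01504, all of which were higher by the probe set that stands for them, and LINC01504 also held CACGTG. LINC00662 also reached 200, and its window held none of the searched letters. TGANTCA occurred in 14 of the 165 LINC promoters (8.48%), against 5.75% of protein-coding promoters and 7.76% of all 27305 promoters. By direction it was in 5 of 40 LINC genes at least 2-fold higher, 2 of 18 at least 2-fold lower and 7 of 107 changed less. ACGTG occurred in 23.6% of the LINC promoters, 23.7% of protein-coding promoters and 21.6% of all. GCGTG occurred in 32.7%, 44.1% and 36.3%, CACGTG in 9.09%, 8.88% and 7.43%, and TATAAA in 15.2%, 9.63% and 12% of the same groups. The LINC promoters had a median GC content of 54.3% and a median of 7 CpG sites, against 62.7% and 22 for protein-coding genes. The 422 LINC genes on the array that did not reach 50 and had a promoter sequence were at 46.7% and 4. A match describes the sequence, and binding was not measured.

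Protein-coding genes served to compare at similar signal. Once protein-coding genes were weighted to the LINC genes' bands, 21.0% of them were higher and 13.1% lower, next to 23.3% and 11.2% of LINC genes. By band, the numbers of LINC genes were small. In the band with a geometric mean signal under 50, 31 of 68 LINC genes (45.6%) were higher by 2-fold or more and 20 (29.4%) lower, against 40.4% and 22.9% of 822 protein-coding genes. Between 50 and 100, 15 of 88 (17%) were higher and 2 (2.27%) lower, against 13.6% and 8.59% of 1269. Between 100 and 200, 0 of 24 were higher and 1 (4.17%) lower, against 10.6% and 7.24% of 1216. Across these bands the shares of both kinds of gene were smaller at higher signal, except for LINC genes in the lower direction. A gene in the band under 50 has at least 1 signal under the threshold, so the shares there follow in part from the threshold. Between 200 and 500, 3 of 22 (13.6%) were higher and 1 (4.55%) lower, against 10.2% and 9.93% of 2156. At 500 and over, 1 of 13 (7.69%) was higher and 0 were lower, against 7.22% and 8.42% of 7027. Weighted over the bands, the LINC median exceeded the protein-coding median by 0.05, and by 0.13 where both arrays reached 50.

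**Figure D3:**
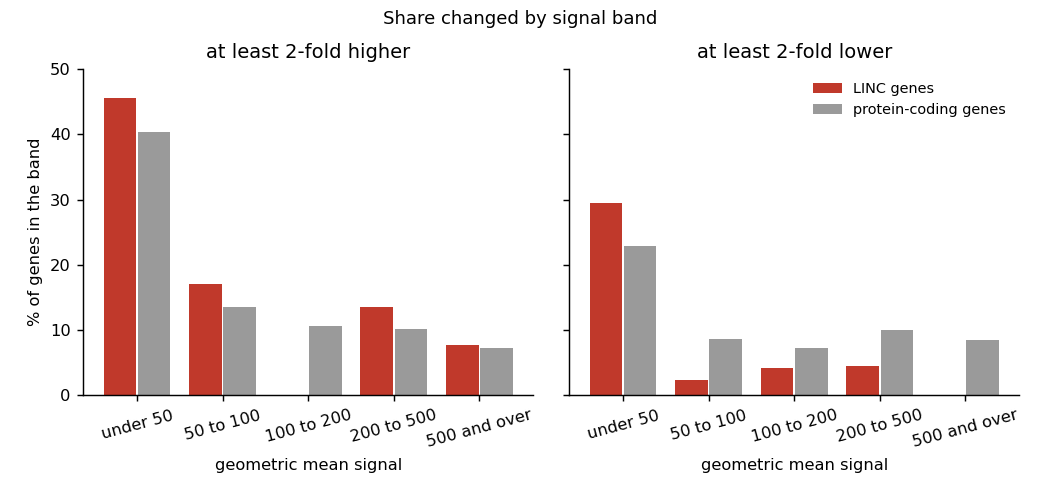
Percentage of LINC genes (left bar) and protein-coding genes (right bar) at least 2-fold higher (left panel) or lower (right panel) on the JMJD1A/JMJD1B siRNA array, in 5 bands of geometric mean signal. Both kinds of gene have their tallest bars under 50, at 45.6% and 40.4% higher and 29.4% and 22.9% lower.

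A second look at the same transcript was possible for 37 LINC genes with 2 or more probe sets at 50 or more on either array. The log2 ratios of the 2 brightest had the same sign in 19 of the 37 (51.4%), against 70.4% over all genes with such a pair. Where the dimmer of the pair had a geometric mean signal under 100, the sign was shared in 9 of 23 LINC genes (39.1%) and in 59.7% of 1494 protein-coding genes. Where it was 100 or more, it was shared in 10 of 14 LINC genes. From these pairs, 1 probe set's ratio had an SD of 0.91 for LINC genes, against 0.65 over all genes. Probe sets of one gene can report different splice forms, and RNA from overlapping genes.

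All probe sets at 50 or more lay above 0 in 13 of the 37 genes, below 0 in 4, and on both sides of 0 in 20. These counts hold on the deposited scale, and the same shares over all genes were not computed. Levelled on the hybridization controls, the brightest probe set of LINC00173, 1 of the 13, would stand at -0.31. LINC00205 was below 0 throughout. Its 5 probe sets at 50 or more had ratios of -0.76, -1.19, -1.25, -1.75 and -0.13. The brightest read 337 on the JMJD1A/JMJD1B siRNA array and 572 on the control siRNA array. LINC00674 had 4 such probe sets between 0.18 and 0.65, and its brightest read 786 with JMJD1A/JMJD1B siRNA and 696 with control siRNA. Besides LINC00674, LINC00963, LINC00467 and LINC01770, the genes with every probe set above 0 were LINC00173, LINC00308, LINC00663, LINC00869, LINC01000, LINC01089, LINC02352, LINC02481 and LINC02482. The LINC02482 pair stood at 0.48 and 1.13, with 305 and 282 on the JMJD1A/JMJD1B siRNA array against 218 and 128 on the control siRNA array. LINC01128 went both ways, with its brightest probe set at 704 with JMJD1A/JMJD1B siRNA and 670 with control siRNA (0.07) and another at 172 with JMJD1A/JMJD1B siRNA and 473 with control siRNA (-1.46). LINC01234, whose brightest probe set was at 0.18, had a second at -1.36. The others below 0 throughout were LINC01547, LINC01806 and LINC02987.

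**Figure D4:**
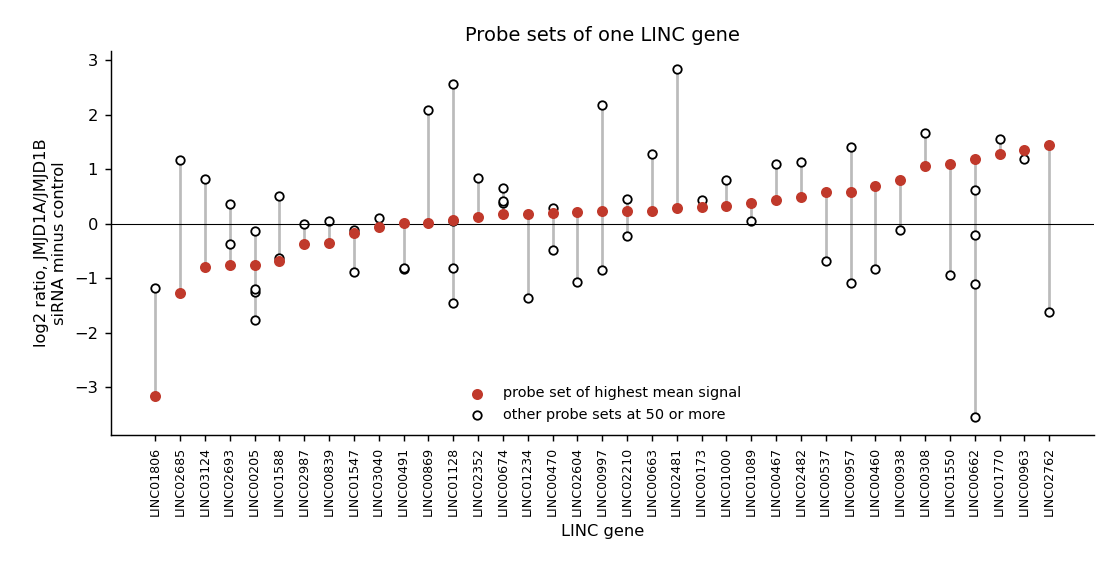
Log2 ratio (JMJD1A/JMJD1B siRNA minus control siRNA) of every probe set at 50 or more for the 37 LINC genes with several. Filled points are the probe set of highest mean signal and open points the others, and the lines span from -3.55 to 1.18 for LINC00662 and from -3.16 to -1.17 for LINC01806.

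Among 26 LINC genes listed for published work in colorectal or other carcinoma cells, 20 had a probe set of a single symbol and 9 reached 50. Of these 9, 2 were higher by 2-fold (LINC00963 and, by its brightest probe set, LINC00662) and 0 lower, and the median was 0.18. Over all genes kept 11.5% were higher and 9.71% lower, and over the 215 LINC genes 23.3% and 11.2%. All of these 9 were at 50 or more on both arrays. At that level 7.83% of 115 LINC genes were higher and 1.74% lower, and 7.96% and 8.03% of all genes. With 9 genes, nothing is read from a count of 2. LINC00460, reported to promote growth of several carcinomas, read 620 on the JMJD1A/JMJD1B siRNA array and 385 on the control siRNA array (0.69), with a dimmer probe set at -0.83. LINC00839 read 396 with JMJD1A/JMJD1B siRNA and 509 with control siRNA (-0.36), LINC00857 read 226 with JMJD1A/JMJD1B siRNA and 216 with control siRNA (0.07), and LINC00520 read 97 with JMJD1A/JMJD1B siRNA and 86.5 with control siRNA (0.17). LINC00339, transcribed near CDC42, was at 758 with JMJD1A/JMJD1B siRNA and 766 with control siRNA (-0.02). The other 11, among them LINC00261, LINC00473, LINC00958 and LINC01133, stayed under 50 on both arrays.

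Of 18 well-known long non-coding RNAs with other names, 15 reached 50, 0 were higher and 4 lower by 2-fold or more by their brightest probe set, and the median was -0.07. These 15 were listed as well known and do not stand for their class. Of all 723 other long non-coding RNA genes 17.6% were higher and 11.3% lower, beside 11.5% and 9.71% of all genes kept. All of the 15 but CYTOR were at 50 or more on both arrays, where the shares over 447 other long non-coding RNA genes were 6.26% and 5.59%. DLEU2, the host of a tumour-suppressive microRNA cluster, read 267 on the JMJD1A/JMJD1B siRNA array and 1461 on the control siRNA array (-2.45). TUG1 read 595 with JMJD1A/JMJD1B siRNA and 1326 with control siRNA (-1.16), and JPX read 149.6 with JMJD1A/JMJD1B siRNA and 369 with control siRNA (-1.30). CYTOR, formerly LINC00152, was at 11.6 with JMJD1A/JMJD1B siRNA and 64.0 with control siRNA, which is at least 1.28-fold lower against the threshold. The difference between the lists was not tested.

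The nearest protein-coding gene could be found for 214 LINC genes, and the spans of 16 LINC genes overlapped one in the current annotation. It reached 50 in 133 cases, with 127 distinct genes. Over these 133 pairs the log2 ratios had a Pearson correlation of -0.09 and a Spearman correlation of -0.10. Over the 70 pairs with the LINC gene at 50 or more on both arrays they were 0.05 and -0.06. All pairs share the same 2 arrays and some share a gene, so these are descriptions. Of 31 LINC genes at least 2-fold higher with a neighbour at 50, 1 neighbour was also higher by 2-fold and 3 were lower. Of 13 lower LINC genes, 1 neighbour was also lower by 2-fold and 0 were higher. Of 89 LINC genes changed less than 2-fold, 13 neighbours were higher by 2-fold and 3 lower. Over all protein-coding genes kept, 10.9% were higher and 9.54% lower, and the difference of these counts from those shares was not tested.

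The pair that was lower together was LINC02551 and SNX19, a sorting nexin gene, which read 136 on the JMJD1A/JMJD1B siRNA array and 332 on the control siRNA array (-1.29). The pair that was higher together was LINC01607 and HEY1, a repressor induced by Notch signalling, which read 291 with JMJD1A/JMJD1B siRNA and 119 with control siRNA (1.29). The opposed pairs were LINC02696 with SYT13 (-1.27), LINC01843 with JADE2 (-1.14) and LINC01620 with TTPAL (-1.06). On the control siRNA array these LINC genes read 7.11, 23.1 and 32.3, all under the threshold. They were kept through the JMJD1A/JMJD1B siRNA array alone, so their direction follows from the threshold and nothing is read from these pairs. TANK, an adaptor of TRAF signalling and the nearest coding gene of LINC01806, read 4586 on the JMJD1A/JMJD1B siRNA array and 3414 on the control siRNA array (0.43), with LINC01806 at -3.16. These neighbours were named after their values were seen, apart from SYT13 and TANK.

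**Figure D5:**
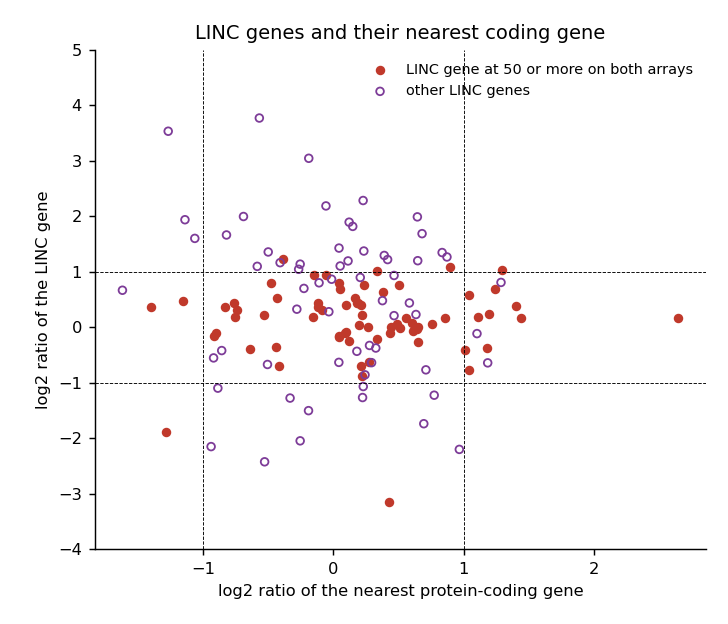
Log2 ratio of each LINC gene (vertical axis) against that of its nearest protein-coding gene (horizontal axis) for the 133 pairs in which both reached 50 on either array, JMJD1A/JMJD1B siRNA minus control siRNA, with dashed lines at 2-fold. The points form a cloud with no slope visible by eye, with a Pearson correlation of -0.09.

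In 8 of the 165 LINC genes with a promoter sequence, a protein-coding gene started on the opposite strand within 1 kb. In 2 of the 8 both log2 ratios had the same sign. LINC00205 and POFUT2, a protein O-fucosyltransferase gene, differed most in direction among the pairs at 50 or more on both arrays. POFUT2 read 728 on the JMJD1A/JMJD1B siRNA array and 353 on the control siRNA array (1.04), while LINC00205 was at -0.76. LINC02482 (0.48) faced MRFAP1L2 (-1.16), and LINC00685 (3.77, with the control signal under the threshold) faced GTPBP6 (-0.57). LINC00662 and LINC02987 also start on opposite strands within 1 kb of each other. So do LINC00479 (0.93) and LINC00112 (0.21), both under 50 on the control siRNA array. LINC02987 read 216 on the JMJD1A/JMJD1B siRNA array and 280.1 on the control siRNA array (-0.37), and its second probe set was level at -0.01. Whether the arrays' probes separate such facing transcripts was not tested.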

How the data were processed

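Total RNA of HCT116 cells was measured on 2 single-channel arrays, 1 per group, prepared from 0.5 ug of total RNA per the labels' protocols. For 54675 probe sets the authors deposited an unlogged intensity, and the submitters' processing notes name MAS5 (settings not stated there). Detection calls were not used here. Gene names came from GEO's platform annotation: 41091 non-control probe sets had 1 gene symbol, 1801 several and 11721 none, and only the first kind was used. Biotypes, neighbours and promoters came from RefSeq tables matched by gene identifier. Their assembly is GRCh38.p14, while the intensity table names no build.

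No pseudocount was added and the deposited scaling was kept. Differences are on the log2 scale, as JMJD1A/JMJD1B siRNA minus control siRNA. A gene was kept with a signal of 50 or more on either array and represented by its probe set of highest mean log2 signal. Where the dimmer signal lay under 50, a bound with that signal raised to 50 is given as "at least". A call is a 2-fold difference, with no test, since each group held 1 array. Bands of geometric mean signal were split at 50, 100, 200 and 500. Results were recomputed with other scalings, a pseudocount, other filters on low signals, other rules for the probe set and other folds. The genes and lists were chosen with earlier results of these data known. Named LINC genes were the 12 highest and 12 lowest ratios past 2-fold, the 6 brightest, those with several probe sets at 50 or more, those at the threshold and the carcinoma list. The nearest coding genes of named genes were also in the rule. Software was Python 3.11.15, pandas 2.3.3, numpy 2.4.6 and, for lowess, statsmodels 0.14.6. The procedure was also run on simulated data with large planted differences and far less noise than these arrays hold. That run checks the calculation and says nothing about the error of these data.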

Additional observations from a re-analysis of the deposited data

Results flagged for a closer look

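Some probe sets carry a LINC symbol together with other symbols and were left out of the comparison, as they cannot be assigned to 1 gene. Of 47 such probe sets, 18 had a signal of 50 or more, 3 of them higher by 2-fold or more on the JMJD1A/JMJD1B siRNA array and 0 lower, and the median log2 ratio was -0.07. Over all genes kept 11.5% were higher and 9.71% lower. Over all genes at 50 or more on both arrays, as these 18 were, the shares were 7.96% and 8.03%. The 3 are noted because they hold a difference in data outside the comparison. The probe set shared by LINC01145, LINC00623, LINC01138 and LINC00869 read 3014 on the JMJD1A/JMJD1B siRNA array and 1400.0 on the control siRNA array, a log2 ratio of 1.11. The one shared by LINC00623 and LINC00869 read 3198 with JMJD1A/JMJD1B siRNA and 1437 with control siRNA, a ratio of 1.15, beside 0.94 for the LINC00623 probe set of single symbol. The one shared by SYNE3 and LINC00341 read 218 on the JMJD1A/JMJD1B siRNA array and 89.0 on the control siRNA array, a ratio of 1.29. A brighter pair of symbols, LINC00673 and LINC00511, shared a probe set that read 2000.2 with JMJD1A/JMJD1B siRNA and 1066 with control siRNA, a ratio of 0.91. Levelled on the hybridization controls, each ratio would be smaller by 0.61, and none of these would be 2-fold higher. The lowest of the 18, -0.91 for a probe set shared by LINC01123 and LINC01106, would then be 2-fold lower. With 1 array per group, none of these differences could be tested.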

How the results depend on the processing

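Of 44 recomputed summary values, 28 stayed within set limits, 13 moved and 3 changed sign. The limits were 1.5-fold for a count, and the same sign within 0.65 for a median or an excess. As 0.65 is more than the reported medians and excess themselves, that limit tested little beyond the sign. The count of LINC genes at least 2-fold higher, 50 as reported, was 21 level on the hybridization controls, 7 with a pseudocount of 50, 9 with both arrays at 50 or more, 14 with a signal of 100 or more, 221 of 840 with no filter and 23 at 3-fold. The count at least 2-fold lower, 24 as reported, was 48, 2, 2, 2, 142 and 15 under the same settings and 41 at 1.5-fold. Fewer or more genes entered under the filters. For the 115 LINC genes at 50 or more on both arrays, with scalings added after seeing the data, 0 were higher and 13 lower on the hybridization controls and 7 higher and 4 lower on the median of all probe sets, against 9 and 2 as reported. The median log2 ratio turned to -0.38 on the hybridization controls by construction and lay between 0.14 and 0.24 otherwise. The excess of the LINC median over protein-coding genes of similar signal, 0.05 as reported, ran up to 0.25, and was -0.0043 with no filter and -0.0132 by the mean of probe sets, so its sign is not settled. Of 528 recomputed values for the 68 named genes, 8 changed the sign of a 2-fold difference. Only genes reported at 2-fold or more could be counted in these 8. LINC00662 stood at -0.61 by the mean of probe sets and at -0.20, -3.55 and -1.11 by other probe sets. LINC02762 stood at -0.0889 by that mean and -1.62 by its other probe set. Another probe set gave -0.94 for LINC01550 and 1.16 for LINC02685. A further 63 values moved by 0.65 or more, some of them across 0. LINC00460, at 0.69 as reported, stood at -0.83 by its other probe set. The cause was not tested. No paired analysis was possible because each group held 1 array. Detection calls were not used here, so how far signals near 50 exceed background is not known.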

Other observations

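Kept LINC genes were spread over the genome. Chromosome 1 held 23 of them, with a median log2 ratio of 0.43. Chromosome 2 held 14, and its median of -0.45 was the lowest of the chromosomes. The highest medians were 1.09 over 7 genes on chromosome 15 and 0.94 over 11 genes on chromosome 9, on the deposited scale, beside 0.06 for all genes kept. These chromosomes were picked after their values were seen, and most of the genes are dim. Genes kept through 1 array alone enter each of these medians. On chromosome 15 these were LINC00928 and LINC01585, higher, and LINC00926 and LINC00930, lower, and the median is the value of LINC02256, an _x_at set. Other genes of the same chromosomes were not compared, so nothing is read from these medians.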
